A study of Mus musculus and Homo sapiens with 56 samples.

Results

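The regions described here are 329 stretches of the human genome at which chromatin RNA of HEK293T cells carried an m6A peak in both control lists and in none of the 4 lists from knockdown cells. All peaks of the 6 HEK293T lists were merged where they shared at least 1 bp, which gave 28815 regions. A region was kept when both shGFP lists held a peak in it and no shALKBH5 or shFTO list did. The 329 regions, called shGFP-only regions below, are 1.14% of all merged regions and 2.28% of the 14439 regions held by both shGFP lists. The presence of peaks chose them, so their counts and peak values are a description and carry no test.

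HEK293T is an established human embryonic kidney line. Its cells were grown in DMEM with serum and carried a lentiviral short hairpin RNA against ALKBH5 (shALKBH5), against FTO (shFTO) or, as control, against GFP (shGFP), and all were kept under puromycin after infection, controls included. Each hairpin has 2 replicates, each with an immunoprecipitated (IP) and an input library, 12 of the 56 samples of the series. The labels do not say whether replicates came from separate infections or cultures, so the spread between lists may be technical. RNA was taken from chromatin, broken into short fragments and captured with an antibody against m6A, and the authors deposited 1 peak list per replicate in hg38 coordinates. The lists hold no expression values, so the fall of ALKBH5 or FTO was not checked here.

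N6-methyladenosine (m6A) is a methyl mark on adenosines inside RNA. METTL3 with its partner METTL14 writes it on nascent transcripts, YTH-domain proteins read it, and FTO and ALKBH5 are dioxygenases that remove it. Some of the mark sits on RNA that stays at chromatin, and the series asks how it relates to the histone mark H3K9me2.

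The 6 lists differ in length. The shALKBH5 lists hold 16211 and 20665 peaks in replicates 1 and 2, the shFTO lists 16305 and 22219, and the shGFP lists 19720 and 18745. The replicate 1 list of each knockdown is shorter than both shGFP lists, and the replicate 2 list is longer than both. The deposited fold enrichment of a peak (IP over local control at the summit, with 1 added to each) and its -log10 p together fix how many IP reads were piled up at the summit, and a whole number met both values within 0.0005 on the -log10 p scale for all 113865 peaks. Median reads per summit were 18 in each shALKBH5 list, 16 and 21 in the shFTO lists, and 17 and 22 in the shGFP lists. How deeply each library was sequenced is not given. The reads used below are those at called summits, which do not measure the depth of a library.

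The shGFP pair alone held more regions than the 2 other pairs of a single hairpin and fewer than 3 pairs of different hairpins. Of the 15 ways to choose 2 of the 6 lists, 3 gave more regions than the 329 of the shGFP pair and 11 gave fewer. The 3 larger pairs join different hairpins: shALKBH5 replicate 2 with shFTO replicate 2 (882 regions), shFTO replicate 2 with shGFP replicate 1 (491) and shFTO replicate 2 with shGFP replicate 2 (357). All 3 include shFTO replicate 2, the longest list. For the shGFP pair that list is 1 of the 4 that must lack a peak. The 2 other pairs of a single hairpin held fewer, with 218 regions for shFTO and 131 for shALKBH5. As a share of the regions that both lists of a pair hold, the shGFP-only regions came to 2.28%, against 1.57% for the shFTO pair and 0.98% for the shALKBH5 pair. For pairs that join a knockdown list with a shGFP list, this share was 3.14% and 2.35% for shFTO replicate 2 with shGFP replicates 1 and 2, and 1.58% and 1.48% for shALKBH5 replicate 2. With the shorter lists it was 0.682% and 1.38% for shALKBH5 replicate 1 and 0.645% and 0.628% for shFTO replicate 1. Pairs of an shALKBH5 with an shFTO list gave 0.251% (both replicate 1), 1.39% (shALKBH5 replicate 1 with shFTO replicate 2), 0.67% (shALKBH5 replicate 2 with shFTO replicate 1) and 5.36% (both replicate 2). The 3 highest shares include shFTO replicate 2, the longest list, and the lowest joins the 2 shortest lists. With the same number of top-ranked peaks (16211) taken from each list, the share of the shGFP pair was 2.20% with 275 regions. The 3 larger pairs then held 288 (shALKBH5 replicate 2 with shFTO replicate 2), 173 and 137 regions (shFTO replicate 2 with shGFP replicates 1 and 2). The pairs above the shGFP pair were in that setting shALKBH5 replicate 1 with shGFP replicate 2 (294) and the pair with 288. The 2 other pairs of a single hairpin held 197 (shFTO) and 174 regions (shALKBH5) there. The converse set, held by all 4 knockdown lists and by neither shGFP list, numbered 141 regions (0.489% of all), and the same count ran from 26 to 494 when another pair was the one left out.

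**Figure D1:**
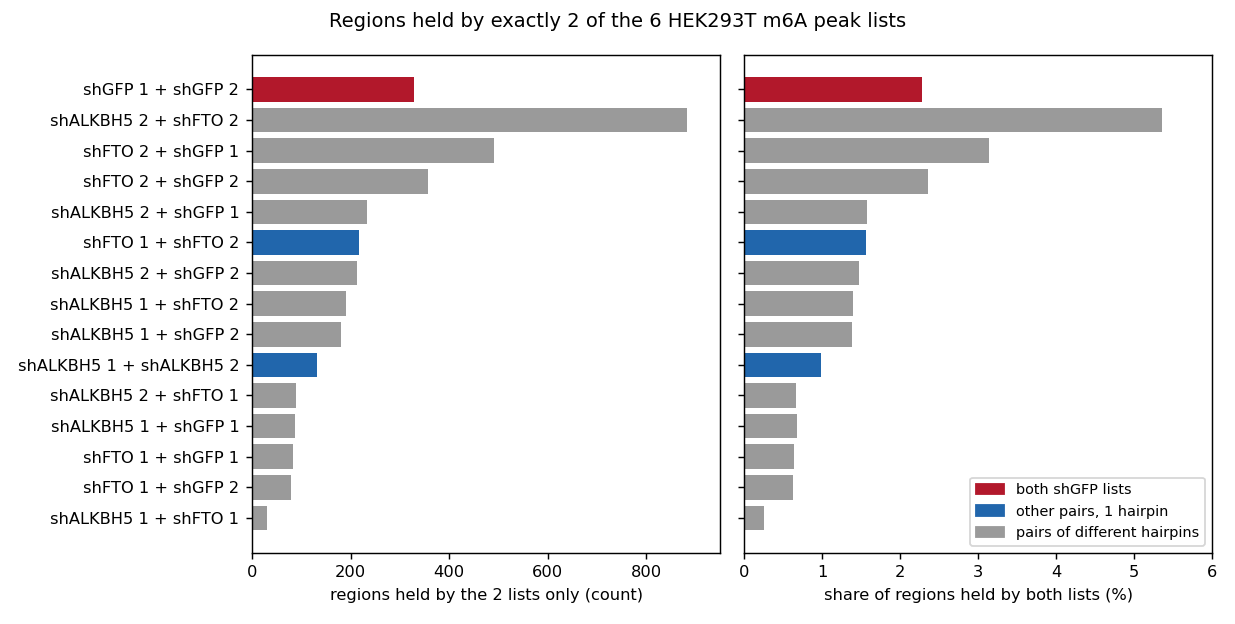
Bars give, for each pair of the 6 lists, the regions that these 2 lists alone hold, as a count (left) and as a percentage of all regions that both lists hold (right). The shGFP pair (red, 329 regions, 2.28%) lies below 3 pairs of different hairpins (grey) and above the shFTO and shALKBH5 pairs (blue, 218 and 131 regions).

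A region without a knockdown peak is not by that fact a region that lost its mark. The lists give a value only where a peak was called, so no knockdown value exists for any of the 329 regions, and a signal just under the threshold of 0.05 on q looks the same as none. The label "lost" is therefore not used for them.

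Most shGFP-only regions were weak peaks in the shGFP lists themselves. Their fold enrichment had a median of 5.72 in shGFP replicate 1 (quartiles 4.94 and 6.82, range 2.75 to 17.2) and 6.03 in shGFP replicate 2 (quartiles 4.78 and 6.94, range 2.91 to 17.6). The medians over all peaks of these lists were 8.04 and 7.99. Ranked by -log10 q within its list, with 100 at the top, the median shGFP-only region stood at percentile 20.2 in replicate 1 and 17.6 in replicate 2. In both lists at the same time, 297 of the 329 regions (90.3%) ranked below the middle and 6 ranked in the upper part. The region width had a median of 439 bp, with quartiles at 365 and 566 bp and a range from 291 to 1640 bp.

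The fold enrichments of the 2 shGFP lists were mostly within 1.5 times of each other, in a narrow low range, and ordered the regions only loosely. Replicate 1 had the higher fold enrichment in 167 regions and replicate 2 in 162. The ratio of the higher to the lower fold enrichment had a median of 1.22, was below 1.5 in 272 regions (82.7%) and above 2 in 10. In 326 regions each list placed a single peak. Across the 329 regions, Pearson's r of the log2 fold enrichments was 0.38 and Spearman's rho 0.359, against 0.80 and 0.774 across all 14439 regions of both shGFP lists. These are descriptions over regions that share their libraries. The 2 summits lay a median of 63 bp apart and within 100 bp of each other in 222 regions (67.5%), and the peaks shared a median of 69.6% of the region. The rule itself requires the peaks of both lists to fall in 1 merged region, which bounds how far apart they can lie.

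Read numbers behind these peaks were small. The median shGFP-only region had 9 IP reads at its summit in shGFP replicate 1 (range 3 to 39) and 10 in shGFP replicate 2 (range 4 to 39). The exact 95% Poisson interval is 4.12 to 17.1 for 9 reads and covers counting error only, since no molecular identifiers are given. In 108 regions (32.8%) both summits had at least 10 reads, in 37 at least 15 and in 16 at least 20. The local control level at the summit had a median of 0.447 reads in replicate 1 and 0.626 in replicate 2. It stood at the lowest level that the list holds in at least 1 shGFP list for 87 regions (26.4%), where the fold enrichment depends on the IP reads alone. Counted per list, 17.8% of the summits stood there, against 9.38% to 31.8% for the 14 other pairs of lists. In regions of both shGFP lists that 1 to 4 knockdown lists also hold, it was 3.23% to 11.5%.

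Regions of both shGFP lists grew stronger step by step with the number of knockdown lists that also held them. Those in 0, 1, 2, 3 and 4 knockdown lists numbered 329, 594, 1045, 1923 and 10548. Their median fold enrichment in the shGFP lists was 5.88, 5.93, 6.48, 7.07 and 11.5 (mean of the 2 lists per region). Their median width was 439, 502, 557, 638 and 951 bp, and width can only grow as more lists add peaks to a region. The share with at least 10 reads at both shGFP summits was 32.8%, 47.8%, 55.3%, 68.9% and 93.9%. In fold enrichment the regions of 0 and 1 knockdown list were close to each other, and the regions of all 4 stood well above the rest.

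The share of shGFP-only regions followed the reads in the same way. Among regions of both shGFP lists whose lower summit had 3 to 5 reads, 49 of 279 (17.6%) were in no knockdown list. This share was 11.3% at 6 to 7 reads, 6.69% at 8 to 9, 2.86% at 10 to 14, 1.04% at 15 to 19 and 0.614% at 20 to 29. At 30 reads or more it was 0 of 5089. Every region with at least 30 reads at both shGFP summits was thus in at least 1 of the 4 knockdown lists.

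**Figure D2:**
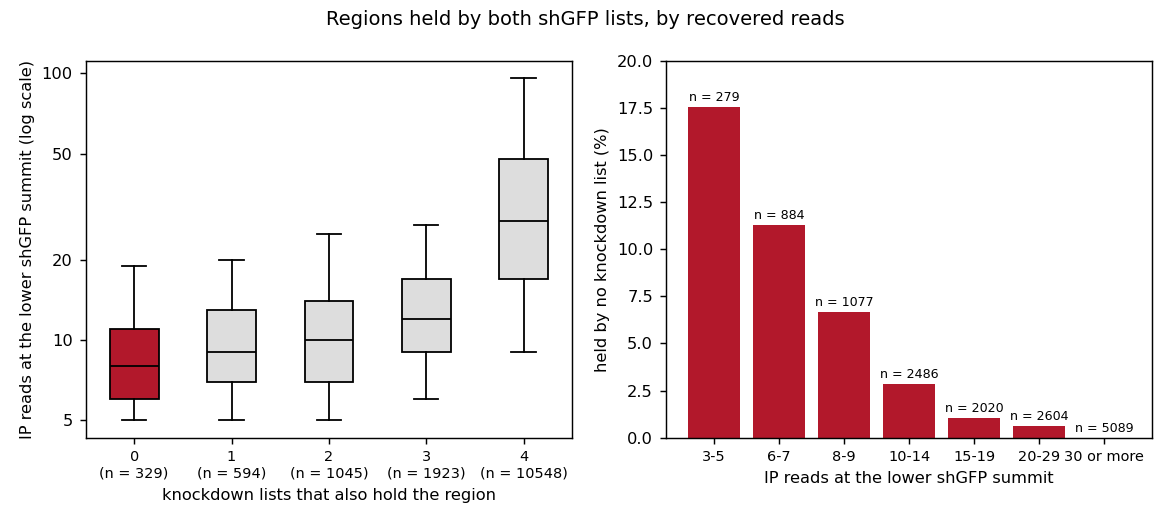
Regions held by both shGFP lists, by IP reads at the lower of their 2 shGFP summits. Left, boxes (median and quartiles, whiskers at the 5th and 95th percentiles, log axis) rise with the number of knockdown lists that also hold the region, from 0 (red, 329 regions) to 4 (10548 regions). Right, the percentage held by no knockdown list drops from 17.6% at 3 to 5 reads to 0 of 5089 at 30 or more, with the number of regions over each bar.

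With the same minimum of reads in both lists of every pair, the shGFP pair lay among the others at 10 and 20 reads. The minimum was not applied to the lists left out. At 10 or more reads in both lists, 0.885% of the regions of both shGFP lists were shGFP-only, the fifth of 15 pairs, against 0.083% to 2.25% for the 14 other pairs. At 20 or more reads the share was 0.208%, the fourth, against 0.0164% to 0.484%. The other pairs of a single hairpin were lower, with 0.502% (shALKBH5) and 0.422% (shFTO) at 10 reads and 0.159% and 0.0313% at 20. At 30 or more reads the share of the shGFP pair was 0, against 0 to 0.150%. In peak quality the shGFP-only regions also fell inside the range of the other pairs. Their median fold enrichment of 5.88 compares with 5.37 to 5.96 for the 14 other pairs, their median width of 439 bp with 376 to 468.5 bp, and their median rank percentile of 19.96 with 15.9 to 22.5.

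**Figure D3:**
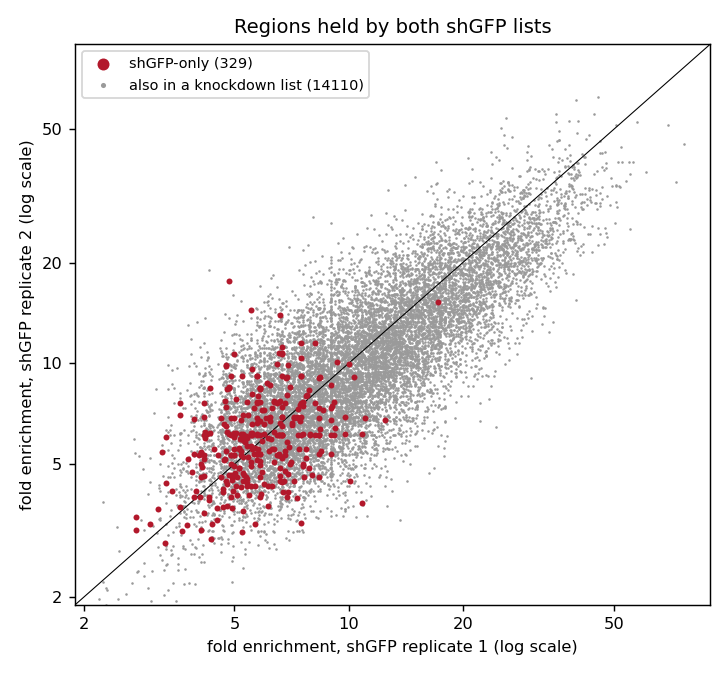
Each point is a region held by both shGFP lists, at its fold enrichment in replicate 1 (x) and replicate 2 (y), both on log axes, and the line marks equal values. The 329 shGFP-only regions (red) sit in the low corner of the 14110 regions that a knockdown list also holds (grey), and 1 of them exceeds 10 in both lists.

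Going by medians, the shGFP-only regions lay farther from peaks of the lists left out than the regions of each of the 14 other pairs. The same held for the distance to regions of all 6 lists. In the first distance, peaks of the pair's own lists were not counted. The nearest knockdown peak was a median of 9159 bp away, against medians of 2199.5 to 8428 bp from regions of the 14 other pairs to the nearest peak of the lists left out. A knockdown peak lay within 1 kb of 67 regions (20.4%), against 21.6% to 33.6% for the other pairs. It lay within 10 kb of 167 regions and farther than 100 kb from 50 (15.2%). The nearest region held by all 6 lists was a median of 59988 bp away, against 17508 to 51149 bp, and lay within 100 kb of 62.3% of the shGFP-only regions, against 64.4% to 79.1%. Within 10 kb the share was 25.5%, inside the range of 23.2% to 40.0% for the other pairs, of which 3 were lower. The ranges nearly meet, the regions were chosen by the absence of knockdown peaks, and no test was made of these differences.

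All 329 regions lay on chromosomes 1 to 22 and X. Chromosome 1 held most, with 29, followed by chromosome 9 with 27, chromosome 6 with 25 and chromosome 2 with 22. Relative to the regions of both shGFP lists on each chromosome, chromosome 13 had the highest share, 18 of 325 (5.54%), and chromosome 9 came next, with 27 of 657 (4.11%). The lowest share above 0 was on chromosome 22, with 2 of 353 (0.567%). Divided by the share over all chromosomes (2.28%), these come to 2.43 for chromosome 13, 1.804 for chromosome 9 and 0.249 for chromosome 22.

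Chromosome 9 was the only one of these chromosomes on which the ratio of the shGFP pair exceeded that of all 14 other pairs, which ran from 0.503 to 1.35. On chromosome 13 the other pairs reached 2.72. Groups of neighbouring shGFP-only regions make up part of the count on chromosome 9: 9 of its 27 regions lie in 3 such groups, and the 18 outside them are 2.74% of the regions of both shGFP lists there, against 1.96% over all chromosomes. Chromosomes were singled out after their values were seen.

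**Figure D4:**
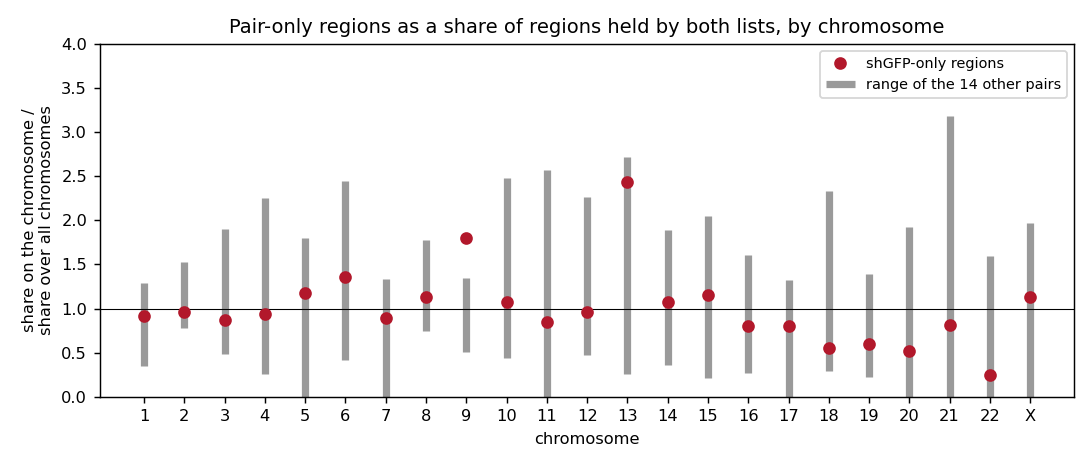
For each chromosome, the share of regions held by both lists that these 2 lists alone hold, divided by the same share over all chromosomes, so that 1 (line) means no difference. Red points are the shGFP-only regions, and grey bars span the 14 other pairs. On chromosome 9 the red point (1.804) lies above the grey bar, and on chromosome 13 (2.43) it lies within it.

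The strongest shGFP-only region was a peak of 1097 bp on chromosome 3 (chr3:156849041-156850137). It was enriched 17.2-fold with 20 reads in shGFP replicate 1 and 15.2-fold with 19 reads in shGFP replicate 2, and the summits were 6 bp apart. It is the only member above 10-fold in both lists, and the nearest knockdown peak is 31835 bp away. With percentiles of 76.9 and 69.1 it ranked in the upper part of both shGFP lists, where few peaks lack a knockdown counterpart. No annotation of the human genome was used, so no gene is given for this or any other region.

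The next 3 regions by mean fold enrichment were high in shGFP replicate 2 and moderate in shGFP replicate 1. On chromosome 11 (chr11:69382926-69384565), the widest region of all at 1640 bp had 4.84-fold enrichment with 6 reads in replicate 1 and 17.6-fold with 22 reads in replicate 2, where it was split into 2 peaks. The leading summits of the 2 replicates lie 749 bp apart there, so the lists share the region but not the same highest point. On chromosome 13 (chr13:68512400-68512881) the values were 6.59-fold with 10 reads and 13.9-fold with 24 reads, and the summits were 58 bp apart. A region on chromosome 8 had 5.53-fold with 7 reads and 14.5-fold with 18 reads, and its nearest knockdown peak was 346467 bp away. In these 3 regions the replicates differed by more than 2-fold, which was so for 10 of the 329 regions.

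A second set was even between replicates. On chromosome 15 (chr15:40937881-40938263) the region had 10.0-fold and 9.96-fold enrichment in shGFP replicates 1 and 2, with 11 and 12 reads. On chromosome 18 (chr18:1364208-1364565) the values were 9.33-fold and 10.1-fold, with 15 and 28 reads, and on chromosome 12 (chr12:3316811-3317531) 10.3-fold and 9.07-fold, with 14 reads in each. All 3 have a knockdown peak close by, at 991, 986 and 242 bp, and whether these peaks lie on the same transcript is not known, since neither strand nor annotation was used.

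The other members of the first 12 were less even. On chromosome 6 (chr6:153822599-153823070) enrichment was 8.17-fold and 11.5-fold in replicates 1 and 2, with 9 and 15 reads, and on chromosome 5 (chr5:92319754-92320304) 7.50-fold and 11.5-fold, with 8 and 14 reads. The region on chromosome 9 (chr9:131344354-131345515), 1162 bp wide, had 7.50-fold and 10.3-fold, with 8 and 13 reads. Replicate 2 was the higher in these 3. In the pair on chromosome X replicate 1 was the higher, with 12.5-fold against 6.77-fold and 14 against 10 reads in the first (chrX:28587259-28588023), and 11.1-fold against 6.86-fold and 15 against 8 reads in the second (chrX:148651743-148652039). The first of these is the most isolated of the 12: no knockdown peak lies within 1477036 bp, and the only peaks of any list within 100 kb are its own 2. The fourth of the widest regions, 1020 bp on chromosome 1 (chr1:99306157-99307176), was enriched 8.33-fold and 5.36-fold with 9 and 6 reads, and lay 662273 bp from a knockdown peak.

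At the other end, the 3 members with the lowest -log10 q in a shGFP list stood just inside the threshold. On chromosome 17 (chr17:78890977-78891503) the -log10 q was 8.64 in replicate 1 and 1.41 in replicate 2, with 9 and 5 reads. On chromosome 3 (chr3:112133336-112133811) it was 1.63 and 7.84, with 8 and 18 reads, and on chromosome 1 (chr1:28259253-28259696) 1.65 and 3.61, with 13 and 16 reads. The regions on chromosomes 17 and 3 were thus close to the threshold in 1 control list only. The region on chromosome 1 ranked low in both, at percentile 0.167 in replicate 1 and 3.68 in replicate 2. Over all members, 319 had a -log10 q of at least 2 in both lists, 159 of at least 5 and 18 of at least 10.

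Just outside the rule are the 594 regions that both shGFP lists and exactly 1 knockdown list hold. The knockdown list was shFTO replicate 2 in 298 of them (50.2%), shALKBH5 replicate 2 in 158 (26.6%), shALKBH5 replicate 1 in 95 (16.0%) and shFTO replicate 1 in 43 (7.24%). The longer lists thus hold most of these regions. The knockdown peak had a median fold enrichment of 5.79 with 11 reads, beside 5.83 with 10 reads in shGFP replicate 1 and 6.07 with 12 reads in shGFP replicate 2. The knockdown values come only from the list in which the peak was called, and the 3 lists without a peak have no value, so these heights compare called peaks and not the knockdown as a whole.

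The knockdown peaks of these 594 regions had a median -log10 q of 6.32 (quartiles 4.79 and 8.97), so most were well clear of the threshold. The 3 regions with the lowest knockdown -log10 q are the extreme of that range. On chromosome 9 (chr9:470180-470695) shALKBH5 replicate 1 had 3.75-fold enrichment with 5 reads (-log10 q 1.94), against 5.26-fold with 7 reads and 8.50-fold with 12 reads in shGFP replicates 1 and 2. On chromosome 10 (chr10:400738-401270) shALKBH5 replicate 1 had 3.63-fold with 7 reads (1.95), against 5.25-fold with 8 and 4.25-fold with 10 reads in shGFP. On chromosome 7 (chr7:66377568-66378082) shALKBH5 replicate 2 had 3.11-fold with 11 reads (1.98), against 4.95-fold with 12 and 5.21-fold with 14 reads in shGFP. In all 3 the knockdown peak was lower than both shGFP peaks, which their choice by low -log10 q favours.

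Read for a single knockdown, more shGFP regions were without a peak. Of the 14439 regions of both shGFP lists, 865 (5.99%) had none in either shALKBH5 list and 694 (4.81%) had none in either shFTO list, and the 329 members are common to both sets by the rule. Both comparisons use the same shGFP lists, so the share in common is not read as a result. By list, shALKBH5 replicates 1 and 2 held 83.1% and 90.9% of these 14439 regions, and shFTO replicates 1 and 2 held 82.9% and 93.7%.

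Some shGFP-only regions lay next to each other along the genome. With a gap of up to 100 kb, a distance chosen after the values were seen, 46 of the 329 (13.98%) fell into 19 groups: 14 of 2 regions, 3 of 3, 1 of 4 and 1 of 5. Among the 14 other pairs this share was 20.1% for shALKBH5 replicate 2 with shFTO replicate 2, which has 882 regions, and 0% to 8.76% for the others. The largest group of any other pair had 4 regions. Regions in 1 group may come from 1 transcript and are then not separate cases.

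The group of 5 lies on chromosome 5 (chr5:140794972-140828856), a span of 33885 bp that holds no knockdown peak. The nearest ones are 87307 bp below it and 27367 bp above it. Its 5 regions are all the merged regions in the span, so both shGFP lists hold each of them and no other list holds any. In order along the chromosome, fold enrichment was 7.50, 7.50, 4.84, 5.83 and 4.16 in shGFP replicate 1, with 8, 8, 6, 6 and 4 reads. In shGFP replicate 2 it was 9.19, 7.62, 8.43, 5.36 and 4.60, with 11, 9, 10, 6 and 5 reads. The first pair has mean fold enrichments of 8.35 and 7.56, above the third quartile of all members (7.02), and the last pair lies below the median of 5.88. The 4 at the lower end sit within a few kilobases of each other. In no other pair did more than 4 neighbouring regions in a row belong to that pair alone. Runs of 3 or more such neighbours numbered 6 for shALKBH5 replicate 2 with shFTO replicate 2 (882 regions), against 2 for the shGFP pair.

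The group of 4 lies on chromosome 9 (chr9:131339482-131373346) and includes the region of 1162 bp named above. Its span of 33865 bp holds 8 regions: the 4 members, 3 that only shGFP replicate 1 holds and 1 that all lists but shFTO replicate 1 hold. In the 4 members fold enrichment was 5.83, 7.50, 8.33 and 5.56 in shGFP replicate 1 and 4.57, 10.3, 6.86 and 6.19 in shGFP replicate 2, with 6, 8, 9 and 6 reads and 5, 13, 8 and 11 reads. At the region shared with knockdown lists, shGFP had 8.99-fold and 9.23-fold. Knockdown peaks were thus present at the upper end of this span, next to a member, and absent from the lower end.

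**Figure D5:**
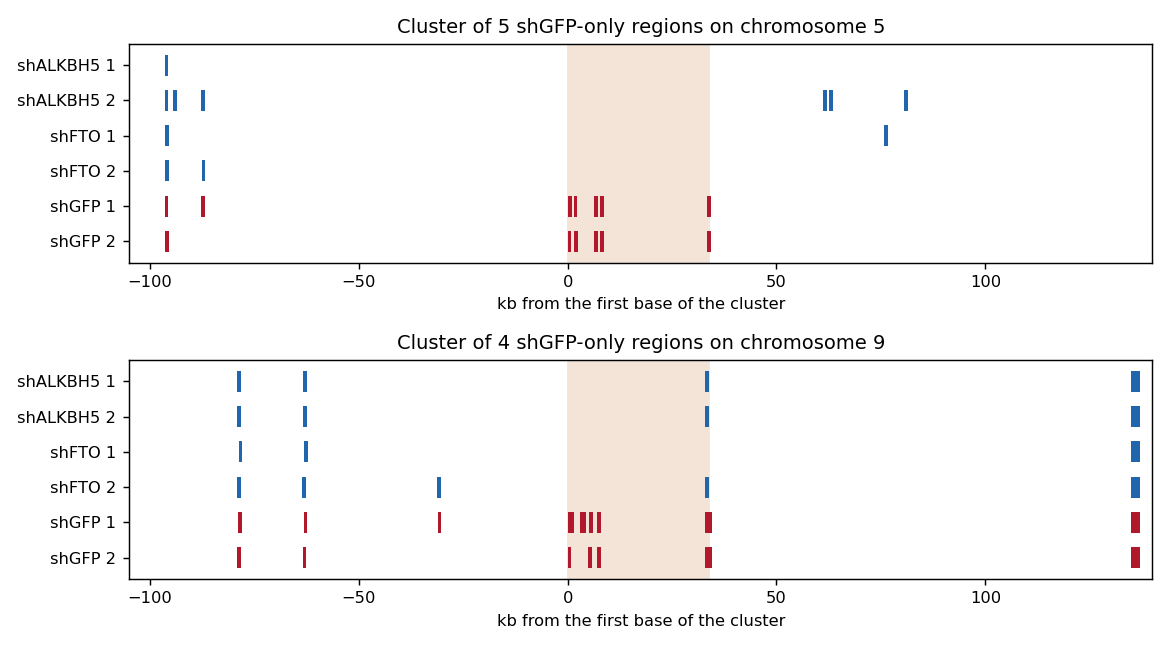
Peaks of the 6 lists around the group of 5 shGFP-only regions on chromosome 5 (top) and the group of 4 on chromosome 9 (bottom), by distance in kb from the first base of the group, whose span is shaded. Each row is a list, with knockdown lists in blue and shGFP lists in red. The shaded span on chromosome 5 has 5 peaks in each shGFP list and none in knockdown lists, and that on chromosome 9 has 3 knockdown peaks at its upper end.

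The 3 groups of 3 were less complete. On chromosome 3 (chr3:156809886-156895071) the group includes the strongest member of all and 1 region that shFTO replicate 2 also holds, where shGFP enrichment was 9.06-fold and 12.3-fold. On chromosome 13 (chr13:68449842-68529024) the 3 members stand among 7 regions, of which 1 is also in shFTO replicate 2 and 3 are in a single shGFP list. On chromosome 9 (chr9:120817856-120845241) a region held by all 6 lists lies between the members, with 10.4-fold and 10.5-fold enrichment in shGFP. In these 3 spans knockdown cells therefore had m6A peaks between the shGFP-only regions.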

How the data were processed

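Peak lists of 6 HEK293T m6A immunoprecipitations were used as deposited by the authors, in the narrowPeak layout, and 3 mouse files were not analysed here. Per the submitters' processing notes, tools of the series include Trimmomatic 0.33.0, HISAT2 2.1.0, Picard 2.16.0, SAMtools 1.7 and MACS2 2.1.1, with build hg38, and their roles are not given. The deposited values are a fold enrichment (ratio of IP to control at the summit), a -log10 p and a -log10 q per peak, with a threshold of 0.05 on q. They describe peaks within a list and were not used to test differences between lists. The strand of peaks is not given.

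Peaks were merged by the code of the report where they shared 1 bp, and bedtools 2.31.1 under that rule gave 28815 regions as well. In each list a region took the highest fold enrichment and the best -log10 q of its peaks, and pair values are means over the 2 lists. Reads at a summit and the local control were solved from fold enrichment and -log10 p (Poisson tail, within 0.0005), and 69 peaks that allowed 2 solutions took the closer. Coordinates count from 1. The code was tested on simulated lists, whose read counts and control levels did not reach down to the lowest of the deposited lists. Members, rules and alternatives were chosen with earlier results of these data known. Regions named are the 12 of highest mean fold enrichment, the 4 widest, 3 just inside and 3 just outside the rule. Groups of neighbours were chosen after their values were seen. The alternatives were other merging distances, 50% coverage, stricter q, equal list lengths, main chromosomes, each list left out and 3 added after seeing the data. Computations used scipy 1.17.1, numpy 2.4.6 and pandas 2.3.3 under Python 3.11.15, and plots matplotlib 3.10.9. No human genome or annotation was used.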

Additional observations from a re-analysis of the deposited data

How the results depend on the processing

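No paired analysis was possible because the results come from no test. The number of shGFP-only regions stayed within 1.5 times its value under every other setting that kept all 6 lists, from 222 (peaks with at least 10 reads, chosen after seeing the data) to 393 (peaks of a list covering at least 50% of the region). Of the 15 pairs, 3 held more regions than the shGFP pair in each of these settings, except that 2 did with equal list lengths (275 regions) and that the other pairs were not counted with knockdown peaks within 1000 bp included (262 regions). With 1 list left out the count ran from 372 to 1749. It was 629 without shFTO replicate 2, 1501 without shGFP replicate 1 and 1749 without shGFP replicate 2, and with 1 shGFP list only 1 peak is required.

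The share of regions of both shGFP lists was 2.28%, 2.20% with equal lengths, 2.02% with peaks within 1000 bp merged, 3.19% with 50% coverage, 1.82% with at least 10 reads, 1.81% with knockdown peaks within 1000 bp counted (chosen after seeing the data), and 2.57% to 4.33% with a knockdown list left out. With a shGFP list left out it was 8.37% and 9.40%, of the regions of the remaining shGFP list. Median fold enrichment was 6.20 with 50% coverage, 7.02 with equal lengths, 6.65 with at least 10 reads and 5.15 to 5.93 with a list left out. The median rank percentile was 23.6, 31.3 and 33.7 in these 3 settings, of which the second and the third leave out weak peaks by construction, and 13.8 to 22.1 with a list left out. Median width was 487, 460 and 484 bp, 454 bp with merging within 1000 bp and 305 to 452 bp with a list left out. Of 182 counts for the other pairs, 134 stayed within 1.5 times. The causes of the other moves were not tested. The reads at the summits limit every single region.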
